A study of Mus musculus with 18 samples.

Results

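Plcb4 and Prkar1a encode proteins of the second messenger pathways, and both were followed here across 6 groups of mice on a water, pesticide or potato regime. They are 2 of the 51 genes that the authors' deposited table names, found by their symbol there and read through its feature number in the deposited intensity table, where both have a value on all 18 arrays. That table has 6914 features, of which 5021 have a value on every array. The authors chose the 51 genes on these samples, so the choice is not independent evidence of any direction.

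The RNA is that of enterocytes scraped from the jejunum, the middle stretch of the small intestine. The donors were BALB/cOlaHsd males, aged 8 weeks when dosing began, with 3 of the 12 animals in a group arrayed and 1 Cy3-labelled Agilent array each. All groups ate the same chow and were gavaged daily for 20 days: ADI mice with 9 pesticides mixed at their acceptable daily intakes, PCS and POS mice with flour of conventionally and organically grown potatoes under storage conditions, PC and PO mice with flour of the same kinds of potato as grown, each at 30 mg of flour per day, and control mice (Ctr) with water. POS mouse 3 is the 1 animal labelled day 27, that is, 7 resilience days past the last gavage. A scraping is a bulk sample, so fewer cells of a type and less RNA per cell cannot be told apart. Of 62 marker genes listed for 10 intestinal cell types the authors' table names 2, Apoa1 for enterocytes and Cd2 for T cells.

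Hormones, neurotransmitters and bacterial toxins reach the inside of an epithelial cell through second messengers. Phospholipase C beta enzymes, switched on by G proteins of the Gq class, split a membrane phosphoinositide into inositol trisphosphate, which releases stored calcium, and diacylglycerol, which activates protein kinase C. The other route runs through cyclic AMP, which frees the catalytic subunits of protein kinase A from their regulatory subunits and in the small intestine drives chloride and fluid secretion. Plcb4 encodes phospholipase C beta 4, an isoform best known in mice from the cerebellum and the retina. Prkar1a encodes the type I alpha regulatory subunit, which holds protein kinase A inactive until cyclic AMP binds.

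Plcb4 was measured by feature 7153 (probe A_55_P2173333), designed on a transcript given by an Ensembl number, which was not matched to RefSeq numbers. Prkar1a was measured by feature 33938 (probe A_51_P294095), designed on NM_021880, which is among the 8 RefSeq transcripts of the gene. RefSeq places Plcb4 on chromosome 2 and Prkar1a on chromosome 11 of GRCm38.p6, and the array files name no build. Probe sequences were not used here, so which of the 24 RefSeq transcripts of Plcb4 its feature reads was not determined. Genes that respond to protein kinase A often carry a cyclic AMP response element, so the promoter windows of both genes were searched for its 8-base form TGACGTCA, which reads the same on both strands. It is shown because 1 of the genes described itself encodes a subunit of protein kinase A. The stretch below holds the match, in capitals, in Prkar1a (RefSeq, GRCm38.p6, chr11:109650889-109650918, plus strand).
Prkar1a: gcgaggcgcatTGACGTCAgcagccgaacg
The match begins 49 bases before an annotated start. It is 1 site, seen in 2 of the 6 Prkar1a windows of 300 bases, and these letters are in 0 of the 2 Plcb4 windows. Of all 32851 RefSeq windows of that length, 588 hold it, or 1.79%. Counted by gene, 549 of 27025 hold it in any window, or 2.03%, and 23.05% hold its shorter form. The shorter form TGACG, on either strand, which lies inside the full one, is in 3 of the 6 Prkar1a windows, 0 of the 2 Plcb4 windows and 20.8% of all windows. A match in letters is a description of the window and was not set against any reading of binding.

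The arrays differed in brightness. The median intensity over the 5021 features ranged from 5 on PO array 2 to 507 on PCS array 3, and lay between 168 and 256 on the control arrays. On PO array 2, 84.2% of values were under 16, and it ranked the features unlike the rest, at a median Spearman coefficient of 0.365 against 0.872 to 0.924 for each of the remaining arrays. Values of the members are therefore given as deposited, after log2 of intensities set to at least 1, and beside them as log2 intensity minus the median of the same array, called centred. A percentile within the array, the share of the 5021 features on that array with a lower intensity, gives a rank that needs no scaling. It can order arrays differently from the centred values. Precision is limited by the number of arrays. Nothing states separate cages or batches. Each limma p-value rests on the spread within groups pooled over all 18 arrays, PO array 2 included. Centred limma fits without that array, chosen after seeing the data, changed the adjusted p of Plcb4. It was 0.873 for ADI, 0.241 for PC, 0.374 for PCS and 0.402 for POS against Ctr. With all arrays it was 0.640 for PC, 0.868 for PCS and 0.919 for POS.

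Plcb4 was bright in the pesticide mice and in 3 of the 4 potato groups, dim in PO mice, and widely spread in controls. Its intensity was 36613, 5063 and 3881 in ADI mice 1 to 3, 4053, 10710 and 39495 in PCS mice, 10549, 5426 and 2100 in POS mice and 8527, 14231 and 2181 in PC mice. In PO mice it was 339, 29 and 510, and in Ctr mice 630, 40 and 8485. The 12 arrays of the ADI, PCS, POS and PC mice all lay at or above 2100, whereas the 3 PO arrays and Ctr arrays 1 and 2 lay at or below 630. Ctr array 3 overlapped the bright groups.

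As a percentile within its array, Plcb4 stood between 95.1 and 99.3 in ADI mice, 96.5 and 98.4 in PCS mice, 92.1 and 97.7 in POS mice and 93.47 and 99.04 in PC mice. It stood at 75.7, 90.0 and 57.3 in PO mice and at 74.4, 14.4 and 93.9 in Ctr mice. The position on Ctr array 2 was below that of the median feature of the same array, the lowest of all 18. Plcb4 varied more between controls than almost any other feature: its SD over the 3 control arrays was 3.64 in centred log2 intensity, against 0.26 for the median feature, and only 3 of the other 5020 features had one as large. Its SD over the ADI arrays was 1.09, against a median of 0.47, and over the PCS arrays 0.40, against 0.51.

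**Figure D1:**
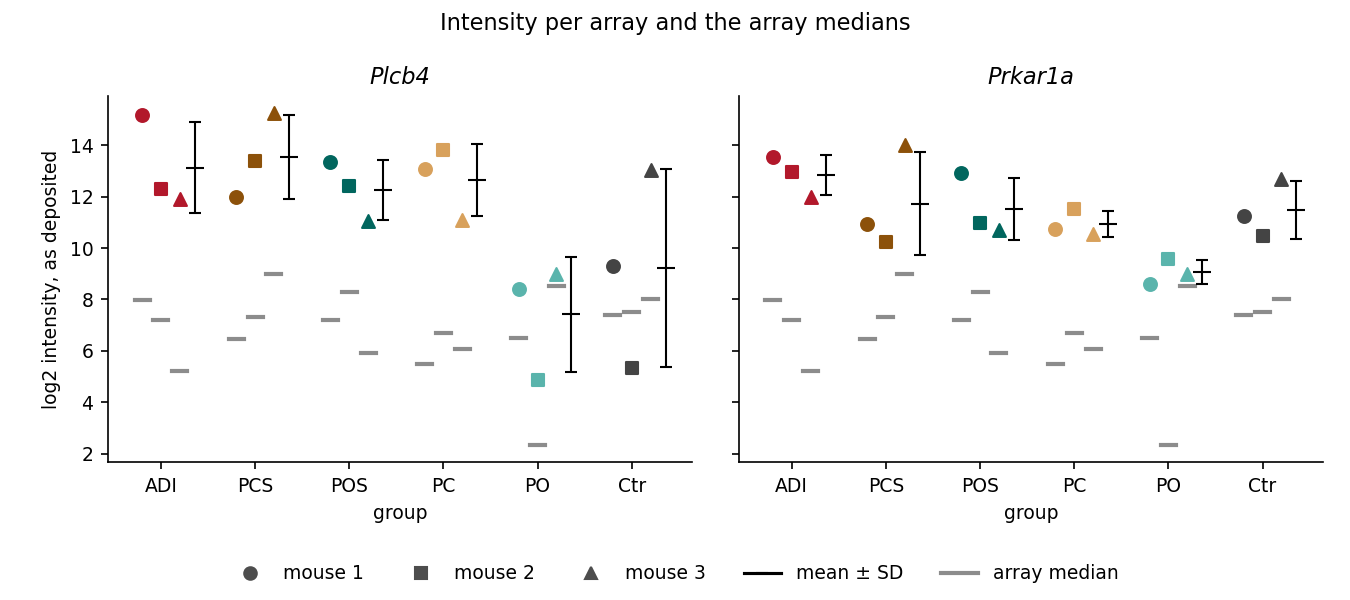
Log2 intensity as deposited (y axis) of Plcb4 and Prkar1a in the 6 groups (x axis), 1 symbol per mouse, with the group mean ± SD in black and a grey bar at the median of each array. Plcb4 lies between 11.04 and 15.27 in the ADI, PCS, POS and PC mice, between 4.86 and 8.99 in the PO mice and between 5.32 and 13.05 in the Ctr mice.

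Plcb4 in ADI mice averaged 13.13 ± 1.77 in log2 intensity, against 9.22 ± 3.86 in Ctr mice (SD, n = 3 each), a difference of 3.91 with a standard error of 1.62. No feature of the 5021 had a larger difference in this comparison, where the median feature was at -0.90. In centred values Plcb4 was at 6.34 ± 1.09 in ADI mice and 1.59 ± 3.64 in Ctr mice, a difference of 4.75. The adjusted p in limma was 0.889 as deposited and 1.00 centred, and limma called 0 of 5021 features (0%), with 2 at an unadjusted p under 0.05 (0.0398%) as deposited and 41 (0.817%) centred. Plcb4 was one of them on both scales. The ADI and Ctr mice overlapped as deposited and did not overlap in centred values, which held in the higher direction for 3.07% of features. An exact permutation test gave p = 0.3 as deposited and 0.1 centred, the smallest that 3 against 3 allows. Without Ctr array 2 the difference was 1.95 as deposited and 2.86 centred, and without Ctr array 3 it was 5.82 and 6.49.

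Prkar1a in ADI mice is the other member that the authors' table lists for this group. Its intensity was 11909, 8051 and 4060 in ADI mice and 2457, 1436 and 6628 in Ctr mice. The ADI mice lay higher, but ADI mouse 3 was below Ctr mouse 3. That ADI array was also the dimmest of the 6, with a median of 37 against 256. Within its array Prkar1a stood at percentiles 96.8, 97.1 and 97.5 in ADI mice, against 89.7, 85.2 and 92.8 in Ctr mice, and the groups did not overlap. They did not overlap in centred values either, where 3.07% of features stood apart in the higher direction. That share was not counted for percentiles. Prkar1a averaged 12.83 ± 0.79 in ADI mice and 11.48 ± 1.12 in Ctr mice (log2, SD, n = 3 each), a difference of 1.35 with a standard error of 1.16. In centred values it was at 6.04 ± 0.64 and 3.84 ± 0.87, a difference of 2.20, larger than that of 99.6% of features. Neither passed in limma, with an adjusted p of 0.889 as deposited and 1.00 centred, and the exact permutation p was 0.2 as deposited and 0.1 centred. Without Ctr array 2 the difference was 0.86 as deposited, and 1.96 without Ctr array 3.

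Stored conventional flour went with the highest mean of Plcb4 as deposited. Plcb4 was at 13.55 ± 1.65 in PCS mice and 9.22 ± 3.86 in Ctr mice (log2, SD, n = 3 each), a difference of 4.32, and again no feature had a larger one. Its centred values were 5.51, 6.07 and 6.28 in PCS mice, all above the 1.91, -2.20 and 5.05 of Ctr mice, and 4.32% of features stood apart in this way. The adjusted p was 1.00 as deposited and 0.868 centred in limma, which called 0 of 5021 features (0%), with 50 at an unadjusted p under 0.05 (0.996%) as deposited and 231 (4.6%) centred. Plcb4 was among them on both scales. In a limma fit of the PCS and Ctr arrays alone, Plcb4 passed with an adjusted p of 0.040, the only feature to do so, and with centred arrays 0 passed. Its difference was 2.37 without Ctr array 2 and 6.24 without Ctr array 3.

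Prkar1a did not stand apart in PCS mice. Its intensity was 1946, 1205 and 16595 in PCS mice, and PCS mouse 3, on the brightest array of all, was above every control while the other two were below Ctr mouse 1. The difference was 0.24 with a 95% interval from -2.16 to 2.65, and -0.90 without PCS array 3. Its centred difference was 0.29.

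In POS mice Plcb4 averaged 12.27 ± 1.17, against 9.22 ± 3.86 in Ctr mice (log2, SD, n = 3 each), a difference of 3.04 as deposited and 3.54 centred. POS mouse 3, labelled day 27, had the lowest Plcb4 intensity of the 3 at 2100, on the dimmest POS array, with a median of 61. Its percentile of 93.8 lay between the 97.7 and 92.1 of POS mice 1 and 2. The adjusted p in limma was 0.999 as deposited and 0.919 centred, with 0 of 5021 features called (0%), and 17 at an unadjusted p under 0.05 (0.339%) as deposited and 237 (4.72%) centred. Plcb4 was among the second set only. Without Ctr array 2 its difference was 1.09, and 4.96 without Ctr array 3. Prkar1a had intensities of 7709, 2012 and 1651 in POS mice, which straddled the controls. Its difference was 0.04 with a 95% interval from -2.36 to 2.45, and -0.65 without POS array 1.

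In PC mice the members parted. Plcb4 averaged 12.65 ± 1.40, against 9.22 ± 3.86 in Ctr mice (log2, SD, n = 3 each), a difference of 3.42 where the median feature was at -1.55, and no feature had a larger one. In centred values its difference was 4.97, and PC mouse 3, at 5.003, fell just below Ctr mouse 3, at 5.051. Prkar1a had intensities of 1735, 2943 and 1484 in PC mice. Its difference was -0.54 with a 95% interval from -2.94 to 1.86 as deposited and 1.01 with an interval from -1.67 to 3.68 centred, so its sign depended on the scaling. In limma the adjusted p was 0.559 for Plcb4 and 0.719 for Prkar1a as deposited, and 0.640 and 0.868 centred. It called 0 of 5021 features (0%), with 41 at an unadjusted p under 0.05 (0.817%) as deposited and 269 (5.36%) centred, Plcb4 among them on both scales. A limma fit of the PC and Ctr arrays alone called Plcb4 with an adjusted p of 0.036, among 3519 of 5021 features called, but 0 with centred arrays. As deposited, 71.3% of features were lower in every PC mouse than in every Ctr mouse. Without Ctr array 2 the Plcb4 difference was 1.47, and 5.34 without Ctr array 3.

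The PO mice were the exception for both genes. Prkar1a had intensities of 393, 753 and 515 in PO mice, all below the 2457, 1436 and 6628 of Ctr mice, and among the lowest of the 18 arrays: no other array was below 1205. It averaged 9.06 ± 0.47 in PO mice and 11.48 ± 1.12 in Ctr mice (log2, SD, n = 3 each), a difference of -2.42, where the median feature was at -1.98. This separation was shared by 7.79% of features in the lower direction. In centred values Prkar1a stood at 2.13, 7.23 and 0.48 in PO mice, with PO array 2, the dimmest array, above every other array and PO array 3 at the bottom. The centred difference was -0.56, and -2.54 without PO array 2. Within the array its percentile was 77.9 and 57.4 in PO mice 1 and 3, under every other array, and 98.5 in PO mouse 2, the highest of all.

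Plcb4 in PO mice averaged 7.42 ± 2.24, against 9.22 ± 3.86 in Ctr mice (log2, SD, n = 3 each), a difference of -1.80 as deposited and 0.05 centred. The groups overlapped on both scales, and the difference was -3.76 without Ctr array 2 and 0.11 without Ctr array 3. In limma the adjusted p was 0.408 for Plcb4 and 0.344 for Prkar1a as deposited, and 0.982 and 0.791 centred. It called 0 of 5021 features (0%), with 523 at an unadjusted p under 0.05 (10.4%) as deposited, Prkar1a among them, and 1039 (20.7%) centred, neither gene among them. With PO array 3 left out, limma called 2936 of 5021 features as deposited. Neither gene was among them, with an adjusted p of 0.172 for Plcb4 and 0.088 for Prkar1a. The same limma fit on centred arrays called 0.

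**Figure D2:**
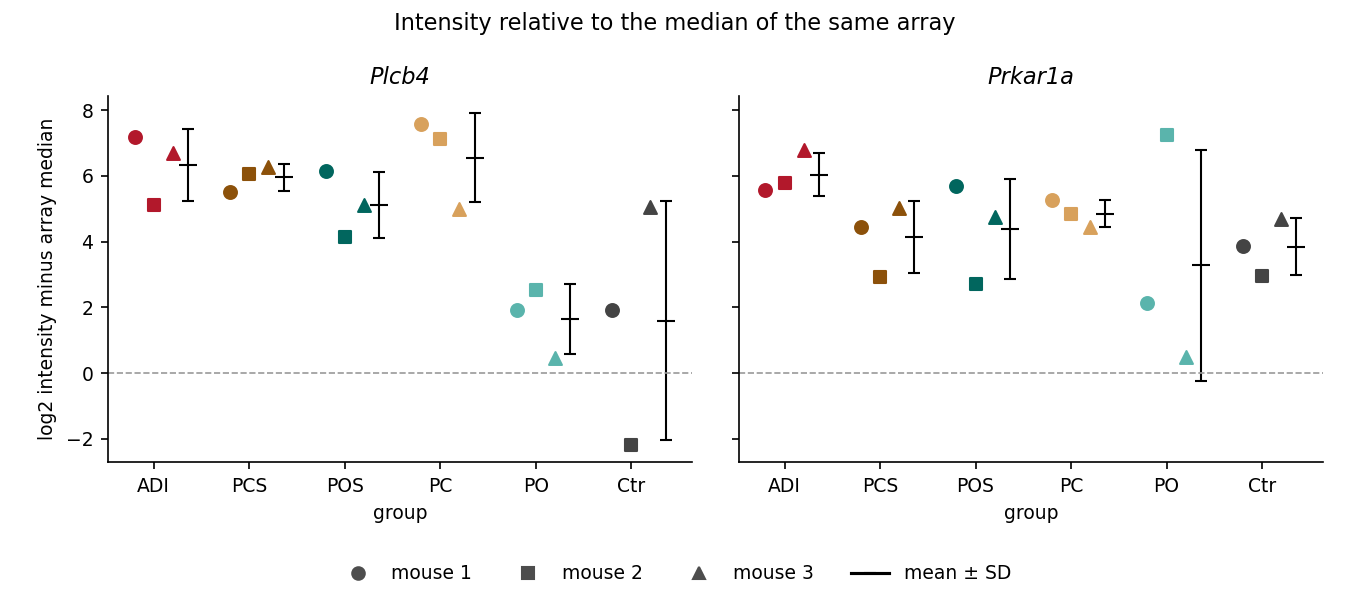
Log2 intensity minus the median of the same array (y axis) of Plcb4 and Prkar1a in the 6 groups (x axis), 1 symbol per mouse, with the group mean ± SD in black and the array median at the dashed line. Plcb4 lies at or above 4.13 on 13 arrays and at or below 2.54 on the other 5, which are the 3 PO arrays and Ctr arrays 1 and 2, and PO mouse 2 has the highest Prkar1a value, 7.23.

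Ordered by mean log2 intensity as deposited, Plcb4 ran PCS, ADI, PC, POS, Ctr and PO, from 13.55 down to 7.42. No neighbours in that order differed by more than the larger of their SDs. In centred values the order was PC, ADI, PCS, POS, PO and Ctr, and the step between POS at 5.13 ± 1.01 and PO at 1.64 ± 1.06 (SD, n = 3 each) was the only one larger than the SD and without overlap. POS and PO stood apart in that direction for 10.4% of features. For Prkar1a the order as deposited was ADI, PCS, POS, Ctr, PC and PO. There only the last step, between PC at 10.94 ± 0.52 and PO at 9.06 ± 0.47, exceeded the larger SD, again without overlap, as for 0.737% of features in that direction. In centred values ADI stood first at 6.04 ± 0.64 and PC next at 4.85 ± 0.41, without overlap, as for 2.05% of features in that direction, and the other steps were within the spread.

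Without storage, PC and PO mice stood apart on both scales for Plcb4 and only as deposited for Prkar1a. Plcb4 was at 12.65 ± 1.40 in PC mice and 7.42 ± 2.24 in PO mice (log2, SD, n = 3 each), a difference of 5.23 with a 95% interval from 1.86 to 8.59, and 4.92 centred. Every PC mouse was above every PO mouse on both scales, as were 0.737% of features as deposited and 10.4% centred in that direction. Only 1 feature had a larger difference, on either scale. The difference was 3.95 as deposited without PO array 2 and 6.02 without PO array 3. Prkar1a was at 10.94 ± 0.52 in PC mice and 9.06 ± 0.47 in PO mice, a difference of 1.88 and no overlap as deposited. Centred, Prkar1a was 1.57 higher in PC mice with overlap. That value was 3.55 when PO array 2 was dropped and 0.17 when PO array 3 was. In limma the adjusted p was 1.00 for both genes as deposited, and 0.174 for Plcb4 and 0.572 for Prkar1a centred. It called 0 of 5021 features (0%), with 11 at an unadjusted p under 0.05 (0.219%) as deposited and 752 (15%) centred. Plcb4 was among them on both scales. The exact permutation p was 0.1 for both genes as deposited, the smallest possible, and centred 0.1 for Plcb4 and 0.5 for Prkar1a.

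With storage the cultivation systems overlapped. Plcb4 was 1.28 higher in PCS mice than in POS mice, with a 95% interval from -2.09 to 4.64, and 0.83 higher centred. The difference was 0.42 without PCS array 3. Prkar1a differed by 0.20, with an interval from -2.20 to 2.60, and by -0.25 centred. The adjusted p in limma was 1.00 for both genes on both scales, and it called 0 of 5021 features (0%), with 2 at an unadjusted p under 0.05 (0.0398%) as deposited and 15 (0.299%) centred, neither gene among them.

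Storage was compared within each cultivation system. In conventional potatoes, Plcb4 was 0.90 higher in PCS than in PC mice as deposited, below the median feature at 1.38, and -0.60 centred. Prkar1a was at 0.79 as deposited and -0.72 centred. Both intervals included 0 on both scales. In organic potatoes, Plcb4 was at 12.27 ± 1.17 in POS mice and 7.42 ± 2.24 in PO mice (log2, SD, n = 3 each), a difference of 4.85 with an interval from 1.48 to 8.22, and 3.49 centred, with no overlap on either scale. As deposited 2.83% of features stood apart in that direction, and 10.4% centred. The Plcb4 difference as deposited was 3.57 without PO array 2. Prkar1a was 2.46 higher in POS than in PO mice as deposited, with no overlap, where the median feature was at 1.54. Centred it was 1.11 higher with overlap. Dropping PO array 2 gave 3.08, and dropping PO array 3 gave -0.30.

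None of these storage differences passed in limma. The adjusted p for PCS against PC was 0.625 for Plcb4 and 0.575 for Prkar1a as deposited, and for POS against PO 0.593 for both. Centred, the adjusted p was 1.00 for both genes in PCS against PC, and 0.434 for Plcb4 and 0.700 for Prkar1a in POS against PO. It called 0 of 5021 features in either (0%). For PCS against PC, 38 had an unadjusted p under 0.05 (0.757%) as deposited and 24 (0.478%) centred, neither gene among them. For POS against PO the counts were 71 (1.41%) and 566 (11.3%), with both genes in the first and Plcb4 in the second. The interaction, PCS minus POS less PC minus PO, was -3.95 for Plcb4 as deposited and -4.10 centred, and -1.68 and -1.82 for Prkar1a. The Prkar1a value depended on single arrays: dropping PCS array 3 gave -2.82 and dropping PCS array 2 gave -0.93 as deposited, while centred, dropping PO array 2 gave -3.80 and dropping PO array 3 gave -0.42. Limma called 0 of 5021 features for it (0%), with 1 at an unadjusted p under 0.05 (0.0199%) as deposited and 356 (7.09%) centred, Plcb4 among the latter. The adjusted p was 1.00 for both genes as deposited, and 0.654 and 0.768 centred.

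**Figure D3:**
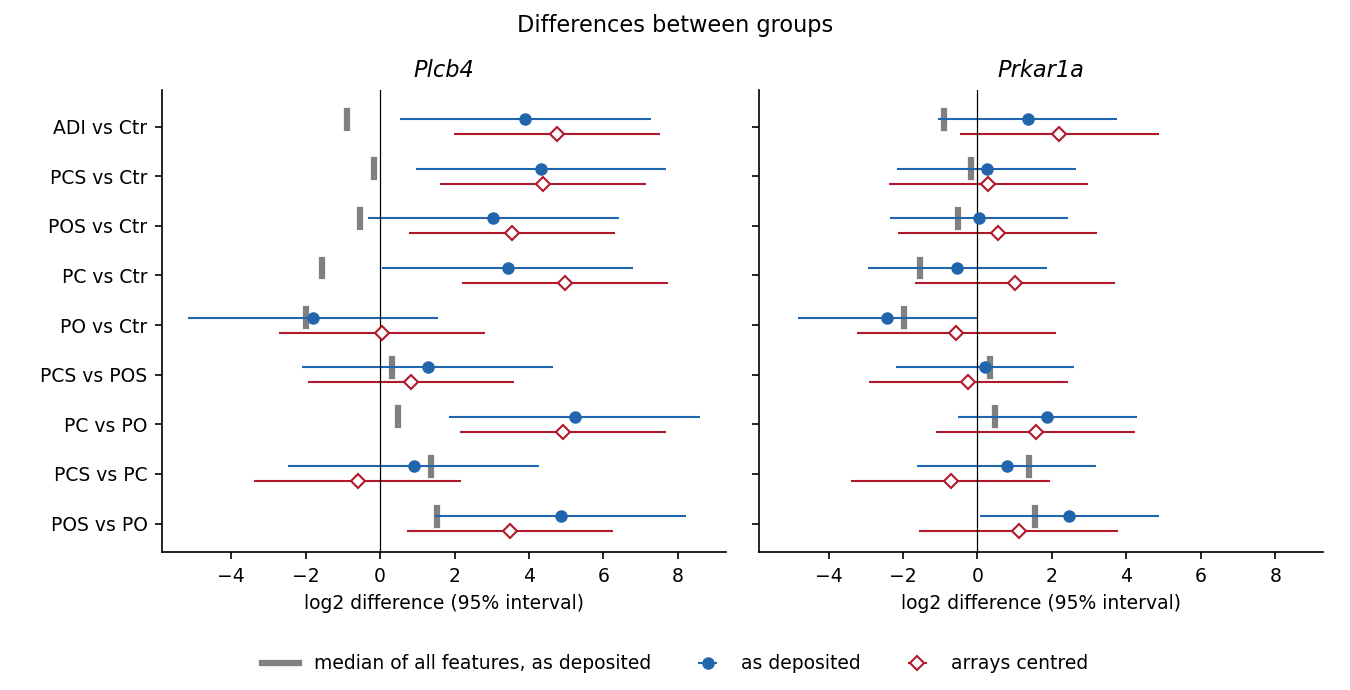
Log2 differences between groups (x axis, first-named minus second-named group, with 95% intervals from limma) for Plcb4 and Prkar1a in 9 comparisons (y axis), as deposited (filled circles) and with arrays centred (open diamonds), with a grey bar at the median of all 5021 features as deposited. In the ADI, PCS, POS and PC mice Plcb4 lies 3.04 to 4.32 above the controls as deposited and 3.54 to 4.97 above them centred, and the Prkar1a intervals against the controls include 0 except for PO as deposited, at -2.42.

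The authors' deposited table gives both genes a narrower spread than the intensities do. For Plcb4 in ADI mice 1 to 3, the authors' deposited table lists log2 folds of 3.16, 2.77 and 2.72, which are 8.92, 6.83 and 6.58 times the controls. The deposited intensities of the same mice are 12.0, 1.66 and 1.27 times the control mean. That Plcb4 control mean was 3052 and rested on Ctr array 3, at 8485. Without Ctr array 3 it was 335, so the intensity folds of Plcb4 would be larger in every exposed group. Intensity folds here use values as deposited, not centred. For Prkar1a in ADI mice the authors' deposited table lists 2.33, 1.89 and 2.06, or 5.02, 3.70 and 4.17 times the controls, against 3.40, 2.30 and 1.16 times in the intensities. For these mice the 2 tables have the same sign and differ in size. They rank the 3 mice alike for Plcb4 but not for Prkar1a, where mice 2 and 3 change places.

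In PCS mice the authors' deposited table lists Plcb4 at 2.45, 2.95 and 2.89, in PC mice at 2.61, 2.51 and 2.10 and in POS mice at 0.86, 0.94 and 0.92. The POS values are under 1, which is under 2-fold, although the header of that table says that folds between 0.5 and 2 were set to 0. Of the 66 POS cells above or below 0 in the authors' deposited table, 57 lie inside those limits, against 27 of 66 in ADI, 4 of 66 in PCS, 0 of 81 in PC and 5 of 6 in PO. The intensities of Plcb4 in POS mice were 3.46, 1.78 and 0.69 times the control mean.

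The authors' deposited table lists both genes at 0 in PO mice. In the intensities Plcb4 was 0.11, 0.0095 and 0.17 times the control mean in PO mice, and Prkar1a 0.11, 0.21 and 0.15 times. Every PO mouse was thus under 0.5 times the control mean for both genes, as for 4.28% of the 5021 features. For Plcb4 this rested on Ctr array 3: against the mean of the other control arrays, PO mice 1 to 3 were at 1.01, 0.087 and 1.52 times. For Prkar1a the PO mice were at 0.20, 0.39 and 0.26 times without that array. The authors' deposited table also lists Prkar1a at 0 in PCS, POS and PC mice, where the intensities ranged from 0.34 to 4.73, 0.47 to 2.20 and 0.42 to 0.84 times the control mean.

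**Figure D4:**
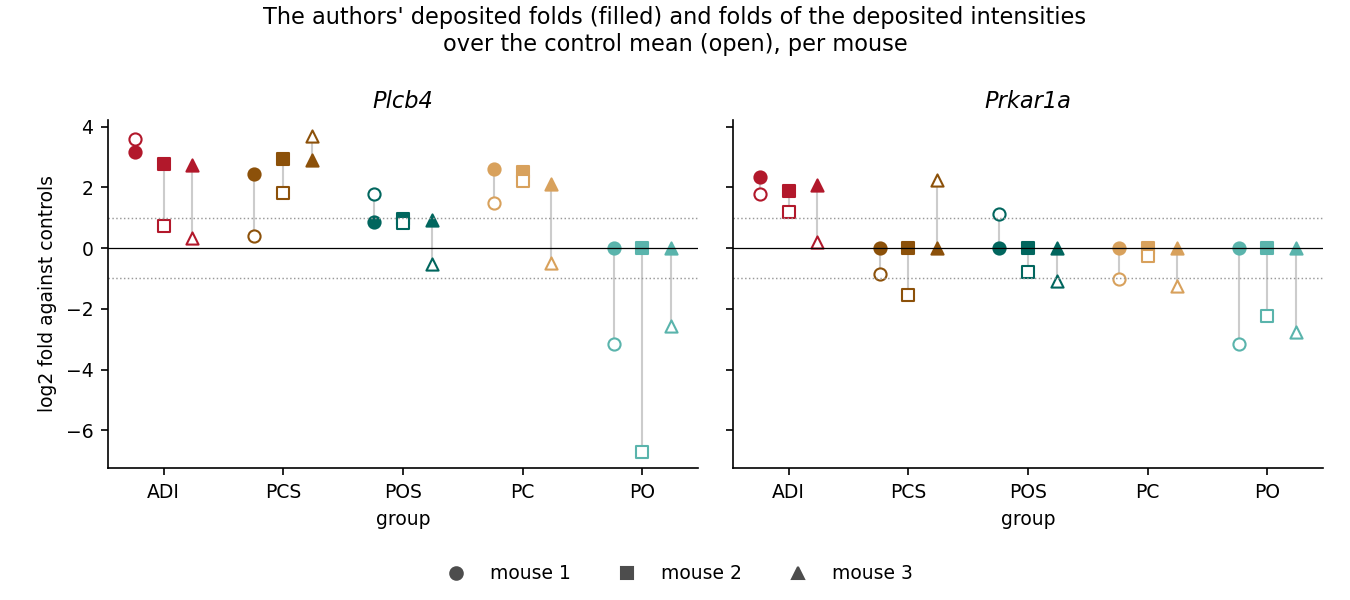
Log2 fold against the controls (y axis) of Plcb4 and Prkar1a for each mouse of the 5 exposed groups (x axis), from the authors' deposited table (filled) and from the deposited intensities over the mean of the 3 control intensities (open), joined by a grey line, with dotted lines at 2-fold and 0.5-fold. The authors' values for Plcb4 in ADI mice span 2.72 to 3.16, and the PO mice are at 0 in the authors' table and under the lower dotted line in the intensities.

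Other genes of the pathways could be followed only where the authors' table names them. Of 35 genes listed for phospholipase C and inositol phosphate signalling it names 1, Plcb4 itself. Of 48 genes listed for cyclic AMP and protein kinase A signalling it names 2, Prkar1a and Pde4b, a phosphodiesterase that breaks down cyclic AMP. In the 10 comparisons limma called none of these 3 genes higher or lower. Pde4b had intensities of 1325, 2735 and 1909 in PC mice, all below the 8233, 8955 and 13241 of Ctr mice, as were 71.3% of features. Its log2 difference there was -2.38 as deposited and -0.83 centred. In ADI mice, with 12694, 6504 and 645, Pde4b differed by -1.40 as deposited and -0.55 centred. ADI mouse 1 lay among the controls for Pde4b and the other two below them, whereas both members had a higher mean in ADI mice on both scales.

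The 2 named markers were measured on the same arrays. Apoa1, an apolipoprotein that enterocytes secrete, stood in centred values at 5.99 ± 0.30 in ADI mice, 5.99 ± 0.28 in PCS, 5.89 ± 0.28 in POS, 5.73 ± 0.38 in PC, 4.72 ± 2.63 in PO and 6.30 ± 0.17 in Ctr mice (SD, n = 3 each). The low PO mean came from PO array 2, at 1.68. PO mice 1 and 3, at 6.27 and 6.21, lay within the control range of 6.12 to 6.47. Apoa1 was lower than the controls in every exposed group mean on both scales, by 0.31 to 1.58 centred. Cd2, a T cell adhesion molecule, stood at 2.61 ± 1.59, 3.54 ± 2.22, 2.60 ± 0.62, 2.76 ± 0.80, 2.94 ± 0.85 and 1.62 ± 0.33 in the same order of groups. In centred values Cd2 was thus higher in every exposed group mean, by 0.99 to 1.92. The single ADI mice were at 1.41, 1.99 and 4.42. PCS mice were at 4.67, 4.96 and 0.98, the last below every control. As deposited the Cd2 difference from the controls was -0.41 in PC mice and -0.54 in PO mice. Limma called Cd2 in none of these comparisons on either scale. The part of Apoa1 and Cd2 in the values of Plcb4 and Prkar1a was not tested. With 1 enterocyte marker of 12 and 1 T cell marker of 6 named, and none of the 44 genes listed for the other 8 cell types, the makeup of the scrapings could not be checked further.

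Among the 42 other named genes with a value on every array, Tead1, which binds DNA for the Hippo pathway, had the pattern most like that of Plcb4. Its Pearson correlation with Plcb4 over the 18 centred arrays was 0.92 (Spearman 0.91), and 0.86 without Ctr array 2 and PO array 3, the 2 arrays farthest from the Plcb4 median. Plcb4 falls into 2 sets of arrays, and over the 13 arrays of the upper set the correlation with Tead1 was 0.72. Ufm1, a ubiquitin-like modifier, followed at 0.61 and Osbpl9, an oxysterol-binding protein, at 0.59, both also at 0.61 and 0.62 over the 13 arrays. Without Ctr array 2 and PO array 3, Ufm1 was at 0.46 and Osbpl9 at 0.63. Over the 18 arrays, the median for Plcb4 with all other features was 0.02, with 0.43 at the 95th percentile. For Prkar1a the most alike was Ufm1 at 0.94 (Spearman 0.92), with 0.88 without PO arrays 1 and 3, then Ufc1, the conjugating enzyme of Ufm1, at 0.82 and Tead1 at 0.64. Without PO arrays 1 and 3, Ufc1 was at 0.62 and Tead1 at 0.43. Over the 18 arrays, the median for Prkar1a with all other features was -0.08, with 0.60 at the 95th percentile. These values describe 18 arrays that share groups, brightness and the authors' choice of genes.

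**Figure D5:**
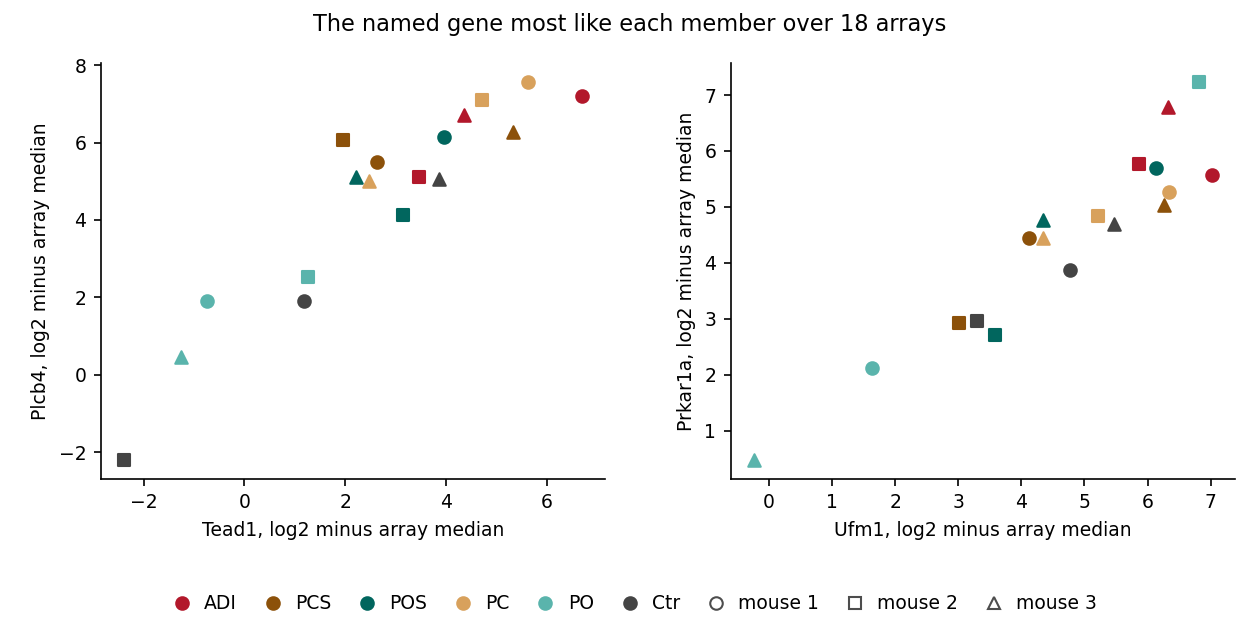
Log2 intensity minus array median of Plcb4 against Tead1 (left) and of Prkar1a against Ufm1 (right), 1 symbol per array, with colours for the 6 groups and shapes for mice 1 to 3. Both pairs rise together over the 18 arrays, with Ctr mouse 2 lowest for Plcb4 at -2.20 and PO mouse 3 lowest for Prkar1a at 0.48.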

How the data were processed

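Messenger RNA was measured on 18 single-colour Agilent arrays, 3 mice in each of 6 groups taken from the labels. The authors deposited intensity values as whole numbers on a linear scale reaching 65501, read by Agilent Feature Extraction per the submitters' processing notes. Which signal column, background step or scaling lay behind them is not given in the sources used here. Separately, the authors' log2 folds per mouse were filtered on fold size, per the file headers.

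Values below 1 were raised to 1 before log2 was taken. On the 5021 features complete over the 18 arrays, limma 3.58.1 in R 4.3.3 fitted a mean for each group, with eBayes, and Benjamini-Hochberg adjustment ran over every feature in each of 10 comparisons at a threshold of 0.05. The fit was run on simulated data with known differences, equal normal noise for every feature and no shifts in array brightness. Those settings differ from the arrays here, so that run does not show the power of the fit on them. Permutation tests were exact and two-sided. Summaries used Python 3.11.15, numpy 2.4.6 and pandas 2.3.3, and figures matplotlib 3.10.9.

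The members, gene lists and tests were chosen with earlier results of these data known. Named genes are the members, the 3 named genes most correlated with each in centred values, and every listed gene that the authors' table names. Same-numbered mice were not paired: the deviations of their arrays from the group means correlated at -0.76 to 0.61, with a median of 0.06 over 45 pairs. Alternatives changed the scaling, floor, filter, fit, weights and arrays used.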

Additional observations from a re-analysis of the deposited data

Results flagged for a closer look

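In centred values the Plcb4 difference with storage was negative in conventional and positive in organic potatoes. All 3 PCS mice, at 5.51, 6.07 and 6.28, lay below the PC mean of 6.56, but PC mouse 3, at 5.003, lay below all of them, so the groups overlapped. The PCS minus PC difference was -0.60 with a 95% interval from -3.38 to 2.17, and -0.10 without PC array 1, so no direction was shown there. All 3 POS mice, at 6.15, 4.13 and 5.11, lay above the PO mean of 1.64 and above every PO mouse, a separation shared by 10.4% of features in that direction. The difference between PCS and PC less that between POS and PO was -4.10 in log2, and the limma interaction test of it did not pass, with an adjusted p of 0.654. As deposited both differences were positive, 0.90 in conventional and 4.85 in organic potatoes. No group had the 4 arrays needed to test for an outlying array.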

How the results depend on the processing

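For each gene and for the counts of features called, 264 values were recomputed. Of these, 236 for Plcb4 and 209 for Prkar1a kept their direction and their side of the threshold. Of the counts, 244 stayed at 0, as in the main fit. A floor of 16, a mean log2 intensity of at least 6, eBayes with trend and all features of the table changed no call and no direction. The replicate block changed none either, with Plcb4 at 3.91 for ADI against Ctr as deposited. With arrays centred, with or without the replicate block and also in fits of the compared groups alone, Prkar1a turned to 1.01 for PC against Ctr, -0.25 for PCS against POS and -0.72 for PCS against PC, and Plcb4 to 0.052 for PO against Ctr and -0.60 for PCS against PC. In the same order these were 1.07, -0.18, -0.68, 0.51 and -0.57 with the 75th percentile, and 1.12, -0.077, -0.65, 0.60 and -0.32 with quantile normalization. Array quality weights, whose estimation stopped before convergence, called many of the 5021 features. Nearly all the weight fell on a single array in the ADI, PCS and POS groups. It was 4974 on ADI array 2, against 0.83 and 0.39 on ADI arrays 1 and 3. PCS array 2 had 837, against 0.82 and 0.43, and POS array 1 had 581, against 0.55 and 0.69. What passed with array quality weights is therefore no test over all mice of those groups. The weighted fits called 2306 for ADI, 3291 for PCS, 3103 for POS and 4330 for PC against Ctr, 4031 for PCS against POS and 4051 for PCS against PC. With these weights Plcb4 passed at 3.86 for ADI, 4.94 for PCS, 4.92 for POS and 3.36 for PC, and Prkar1a at 1.75 for ADI and 1.68 for POS. Prkar1a also passed with its sign turned, at -0.99 for PCS against Ctr and -2.67 for PCS against POS. Plcb4 turned to 0.52 for PO against Ctr and Prkar1a to -0.48 for PCS against PC, neither passing. Of 5021 features, fits of the compared groups alone called 1 for ADI, 1 for PCS, 11 for POS and 3519 for PC against Ctr and 1 for PCS against PC. Plcb4 passed there at 4.32 for PCS and 3.42 for PC. The cause of these changes was not tested.

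Over the leave-one-out fits on both scales, which include fits without PO array 2 chosen after seeing the data, Plcb4 ranged over -3.76 to 1.78 for PO against Ctr and -1.38 to 1.68 for PCS against PC. Prkar1a ranged over -1.04 to 1.43 for PC, -0.90 to 0.99 for PCS, -0.65 to 1.38 for POS and -2.92 to 0.84 for PO against Ctr. It ranged over -1.09 to 0.95 for PCS against POS, -1.16 to 1.53 for PCS against PC and -0.30 to 3.08 for POS against PO. The features called, of 5021, numbered 0 to 1 for ADI, PCS, POS and PC against Ctr, 0 to 2936 for PO against Ctr, 0 to 3 for PC against PO and 0 to 1 for POS against PO. On PO array 2, 84.2% of values were under 16.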
